A study of Mus musculus with 10 samples.

Results

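The type I interferon antiviral genes are 37 genes that cells switch on when an interferon alpha or beta signal reaches them, and they were followed across all 10 RNA sequencing libraries of the study. The members were taken by gene symbol from a list of interferon-stimulated genes. It left out the guanylate-binding and immunity-related GTPases and the interferon regulatory factors. No cut on measured values was used, but the list was chosen with earlier results of these data known. All 37 were among the 24015 genes of the count table, and each had at least 1 read in some library. The cells were MAF9 cells, C57BL/6 mouse bone marrow transduced with the leukemia fusion gene MLL-AF9 and grown in medium with 15% serum and 10 ng/ml interleukin-3. All 5 groups carry this fusion, and nothing in the labels says whether the culture was 1 clone or a mixed pool, or gives the age of the donor mice. The groups were treated for 4 days with DMSO, the solvent control, or with 1 of 4 inhibitors at its IC50 dose. MM-401 (MM401 in the sample titles) blocks binding of MLL1 to WDR5, EPZ5676 (EPZ) inhibits the histone methyltransferase DOT1L, MI-2-2 (labelled MI-2 or MI) blocks the MENIN interaction of MLL proteins, and iBET is an inhibitor of BET proteins. Each group had 2 libraries.

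Interferon alpha and beta bind the receptor IFNAR1-IFNAR2, whose kinases JAK1 and TYK2 activate the ISGF3 complex. This complex, which includes STAT2 and IRF9, binds interferon-stimulated response elements in the promoters of antiviral genes. The products act at successive steps of infection. RIG-I (Ddx58) and MDA5 (Ifih1) sense viral RNA, the OAS enzymes make a second messenger that turns on RNA decay, IFIT proteins bind foreign RNA, IFITM proteins hold back viral entry, and ISG15 is a ubiquitin-like tag. Many of the same genes are used in myeloid cells at a low tonic level without infection.

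Library totals were 20394762 to 29473127 reads, so that 1 read stood for 0.0365 to 0.0485 CPM, the read count scaled to a common library size with TMM factors. A total of 12971 genes passed the expression filter, among them 33 of the 37 members. Oasl1, Ifit3, Mx2 and Ifi44 did not pass. The second DMSO library stood apart. It held 3630 reads on 4 genes of the Y chromosome (Uty, Kdm5d, Eif2s3y and Ddx3y), of which the other 9 libraries held 0 to 2, and Xist was at 4.65 CPM there against 1026 to 2817 CPM elsewhere. That library was also the lowest of the 10 for 21 of the 37 antiviral genes, and 4 others tied at 0 reads in several libraries. Counts of called members against DMSO are therefore given with and without it, and single genes where the call or the fold moves. Defining myeloid markers were present in every library, with Ptprc (CD45) at 380 to 1011 CPM. The erythroid marker Hbb-b1 and the T cell marker Cd3e had no read in any library. Of 6 genes listed as markers of plasmacytoid dendritic cells, the main interferon producers of blood, Siglech had 1 read in all libraries together, Ly6d had 0 and Klk1 2. Ccr9 had 0 to 5 reads a library. Tcf4 and Irf8, which other blood cells use as well, were present in every library, Tcf4 at 15.5 to 21.1 CPM with EPZ5676 and MI-2-2 and 39.4 to 61.5 CPM elsewhere, and Irf8 at 132 and 241 CPM with iBET and 21.1 to 61.3 CPM elsewhere.

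The plot of all 37 members shows the 4 libraries treated with EPZ5676 or MI-2-2 as the bright columns for most genes of the OAS and IFIT groups. In the ISG15 group this holds for Isg15 and not for Usp18, Herc6 and Trim25.

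**Figure D1:**
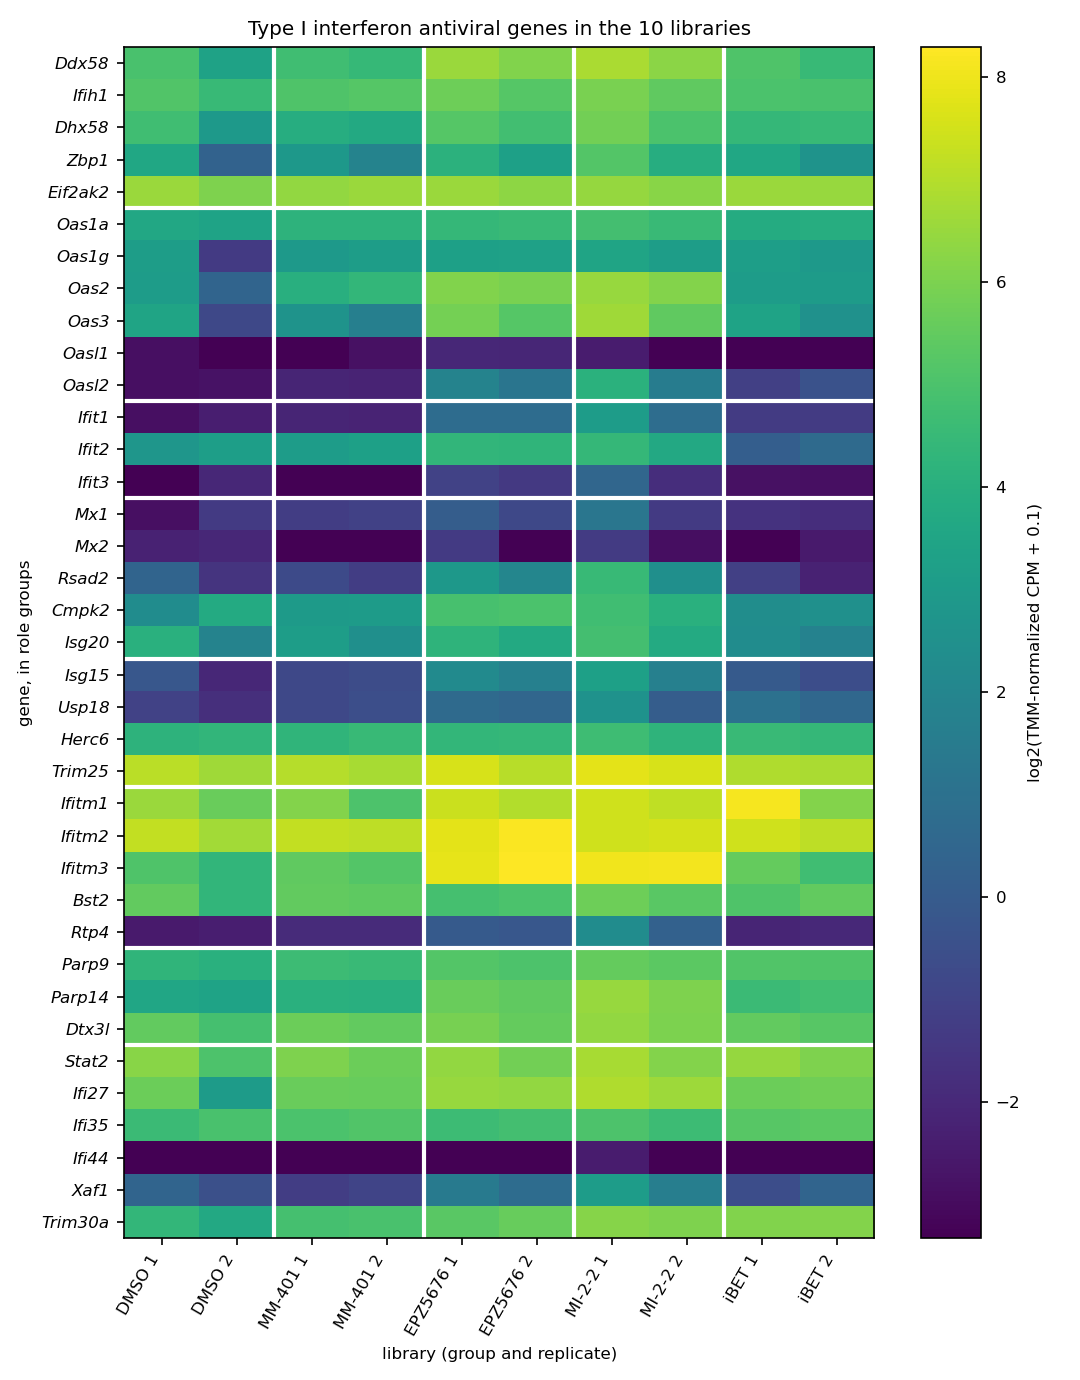
Heat map of the 37 type I interferon antiviral genes (rows, in role groups separated by white lines) in the 10 libraries (columns), coloured by log2 of TMM-normalized CPM plus 0.1. The library MI-2-2 replicate 1 is the highest of the 10 for 30 of the 37 genes.

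Promoter sequences are shown for 5 members that were among the 3 largest called changes of some comparison (at 5 CPM or more) and whose window holds the response element letters, because this element is the known landing place of ISGF3. The windows run from 250 bases before to 50 after the transcript start and come from RefSeq on build GRCm38.p6, a later build than the mm9 that the submitters' processing notes name. The motif searched was GAAA, any 2 bases and GAAA, on both strands, and each match is in capitals. On the opposite strand it reads TTTC, any 2 bases and TTTC. The windows lie at chr19:34640639-34640938 on the plus strand for Ifit1, chr12:26456403-26456702 on the minus strand for Rsad2, chr5:120777610-120777909 on the minus strand for Oas3, chr7:141010695-141010994 on the minus strand for Ifitm3, and chr7:104446076-104446375 on the minus strand for Trim30a, each printed 5′ to 3′ along its gene.
Ifit1: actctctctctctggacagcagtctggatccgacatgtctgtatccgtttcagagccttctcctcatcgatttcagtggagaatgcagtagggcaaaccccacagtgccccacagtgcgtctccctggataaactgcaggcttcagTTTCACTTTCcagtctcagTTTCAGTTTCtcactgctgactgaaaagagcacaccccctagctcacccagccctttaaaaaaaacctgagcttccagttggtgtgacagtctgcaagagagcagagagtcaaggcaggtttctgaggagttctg
Rsad2: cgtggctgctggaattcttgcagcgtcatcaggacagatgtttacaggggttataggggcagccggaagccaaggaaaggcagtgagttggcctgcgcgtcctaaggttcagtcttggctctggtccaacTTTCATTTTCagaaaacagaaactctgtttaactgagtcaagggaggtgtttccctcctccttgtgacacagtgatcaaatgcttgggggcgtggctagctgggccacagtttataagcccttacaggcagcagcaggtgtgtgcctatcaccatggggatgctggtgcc
Oas3: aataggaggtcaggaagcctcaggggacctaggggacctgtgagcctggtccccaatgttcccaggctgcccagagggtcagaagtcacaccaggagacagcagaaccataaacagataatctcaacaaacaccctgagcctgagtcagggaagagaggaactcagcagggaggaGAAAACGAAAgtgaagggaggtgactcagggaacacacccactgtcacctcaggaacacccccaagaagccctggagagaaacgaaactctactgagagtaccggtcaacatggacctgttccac
Ifitm3: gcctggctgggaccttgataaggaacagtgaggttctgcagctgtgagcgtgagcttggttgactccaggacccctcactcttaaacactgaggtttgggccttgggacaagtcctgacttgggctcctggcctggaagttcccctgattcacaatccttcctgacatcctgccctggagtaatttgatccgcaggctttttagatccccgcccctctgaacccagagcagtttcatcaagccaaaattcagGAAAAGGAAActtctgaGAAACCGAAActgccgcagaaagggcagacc
Trim30a: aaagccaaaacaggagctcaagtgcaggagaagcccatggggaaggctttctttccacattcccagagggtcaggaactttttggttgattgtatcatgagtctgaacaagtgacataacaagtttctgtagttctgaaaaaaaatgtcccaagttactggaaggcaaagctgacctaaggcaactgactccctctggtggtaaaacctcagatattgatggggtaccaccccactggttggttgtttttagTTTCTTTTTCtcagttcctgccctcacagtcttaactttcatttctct
The table held promoters for 27 of the 37 members, and 15 of the 27 (55.6%) had a match in at least 1 window. Among all 27025 genes with a promoter there, 1079 (3.99%) had one. Ifit1 carried 2 matches, from -104 to -95 and from -85 to -76 relative to the start, both on the opposite strand. Isg15 carried 3 overlapping matches between -78 and -57. In Ifitm3 the matches lay inside the transcript, from 2 to 11 and from 19 to 28. Oasl2, Ifit2 and Cmpk2 had none of these letters in their windows. Of the 15 members with a promoter that were called higher after MI-2-2, 9 held the motif, and of the 9 tested members with a promoter that were not called, 5 did. Eif2ak2 and Bst2 held the motif, and neither was called. A match is a description of the letters, not evidence of binding.

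**Figure D2:**
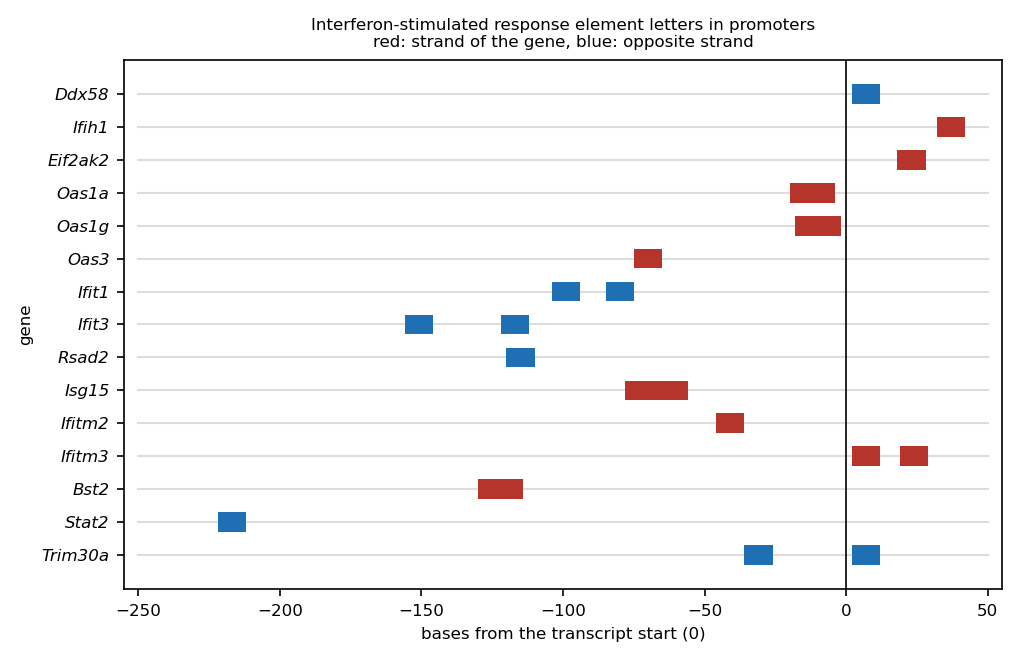
Positions of the response element letters in the promoter windows of the 15 members that hold them, in bases from the transcript start at 0 (horizontal axis), with matches on the strand of the gene in red and on the opposite strand in blue. Overlapping matches merge into longer blocks, as in Isg15, and the pair of Trim30a blocks come from separate start sites.

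EPZ5676 and MI-2-2 raised a large share of the antiviral genes above the DMSO control, and neither lowered any. With EPZ5676, 16 of the 33 tested members were called higher and 0 lower at an adjusted p under 0.05 (edgeR quasi-likelihood test). Of all genes tested, 18.7% were called higher and 19.4% lower. With MI-2-2, 20 members were called higher and 0 lower, against 20.2% higher and 21.2% lower among all genes. The median log2 fold change of the tested members was 1.14 with EPZ5676 and 1.38 with MI-2-2, where the medians of all genes tested were -0.06 and -0.05. Called members ranged from 0.94 to 5.90 with EPZ5676 and from 0.81 to 7.67 with MI-2-2. Both treated libraries lay above both DMSO libraries for 26 members with either inhibitor, where 31.6% of all genes did so with EPZ5676 and 33.1% with MI-2-2. Oasl2, Ifit1, Mx1 and Rtp4 passed the filter only through these treated libraries, and the medians and counts above are over a set that includes them. Among the 29 members that pass without them, 13 were called higher with EPZ5676 and 17 with MI-2-2. In bulk RNA, more cells expressing a gene and more RNA per cell cannot be told apart. Without the second DMSO library the counts were 15 and 19. Without the first they were 25 and 27, with Ifih1, Eif2ak2, Trim25 and Dtx3l added for EPZ5676, Ifitm2 and Bst2 for MI-2-2, and Dhx58, Zbp1, Oas1g, Isg20, Stat2 and Ifi27 for both. Calls over all genes tested also grew in number without the first DMSO library, so this gain is not particular to the antiviral genes. The log2 fold changes of Ddx58, Oas2, Oas3, Rsad2 and Isg15 were then larger with both inhibitors, as in Oas3 at 6.64 ± 0.95 and 7.19 ± 0.96. Leaving out the first DMSO library cost Rtp4 its call with EPZ5676 (adjusted p = 0.0712) and Cmpk2 its call with MI-2-2 (0.0747). Leaving out the second cost Rsad2 and Rtp4 theirs with EPZ5676 (0.0664 to 0.107) and Ifih1, Usp18 and Trim25 theirs with MI-2-2 (0.0519 to 0.0932). Without MI-2-2 replicate 2, Oas3, Cmpk2 and Trim25 lost theirs (0.0512 to 0.0631). Without MI-2-2 replicate 1 the count for that inhibitor was 11. Ifih1, Oas3, Ifit2, Rsad2, Cmpk2, Usp18, Trim25, Dtx3l and Xaf1 then lost their call, with adjusted p between 0.0513 and 0.236. Leaving out EPZ5676 replicate 1 cost Ddx58, Oas3, Rsad2, Isg15 and Rtp4 their call with that inhibitor (adjusted p 0.0596 to 0.147), and leaving out replicate 2 cost Oas3, Rsad2, Cmpk2, Ifitm2 and Rtp4 theirs (0.0534 to 0.0958). Calls over all genes also fell in number when any single EPZ5676 or MI-2-2 library was left out. Calls that held under every alternative run with EPZ5676 were those of Oasl2, Ifit1, Ifitm3 and Parp14. With MI-2-2 they were those of Oasl2, Ifitm3, Parp9, Parp14 and Trim30a, and none held with iBET. Of these, Oasl2 and Ifit1 are among the members that the treated libraries alone brought past the filter, so their calls are a description.

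**Figure D3:**
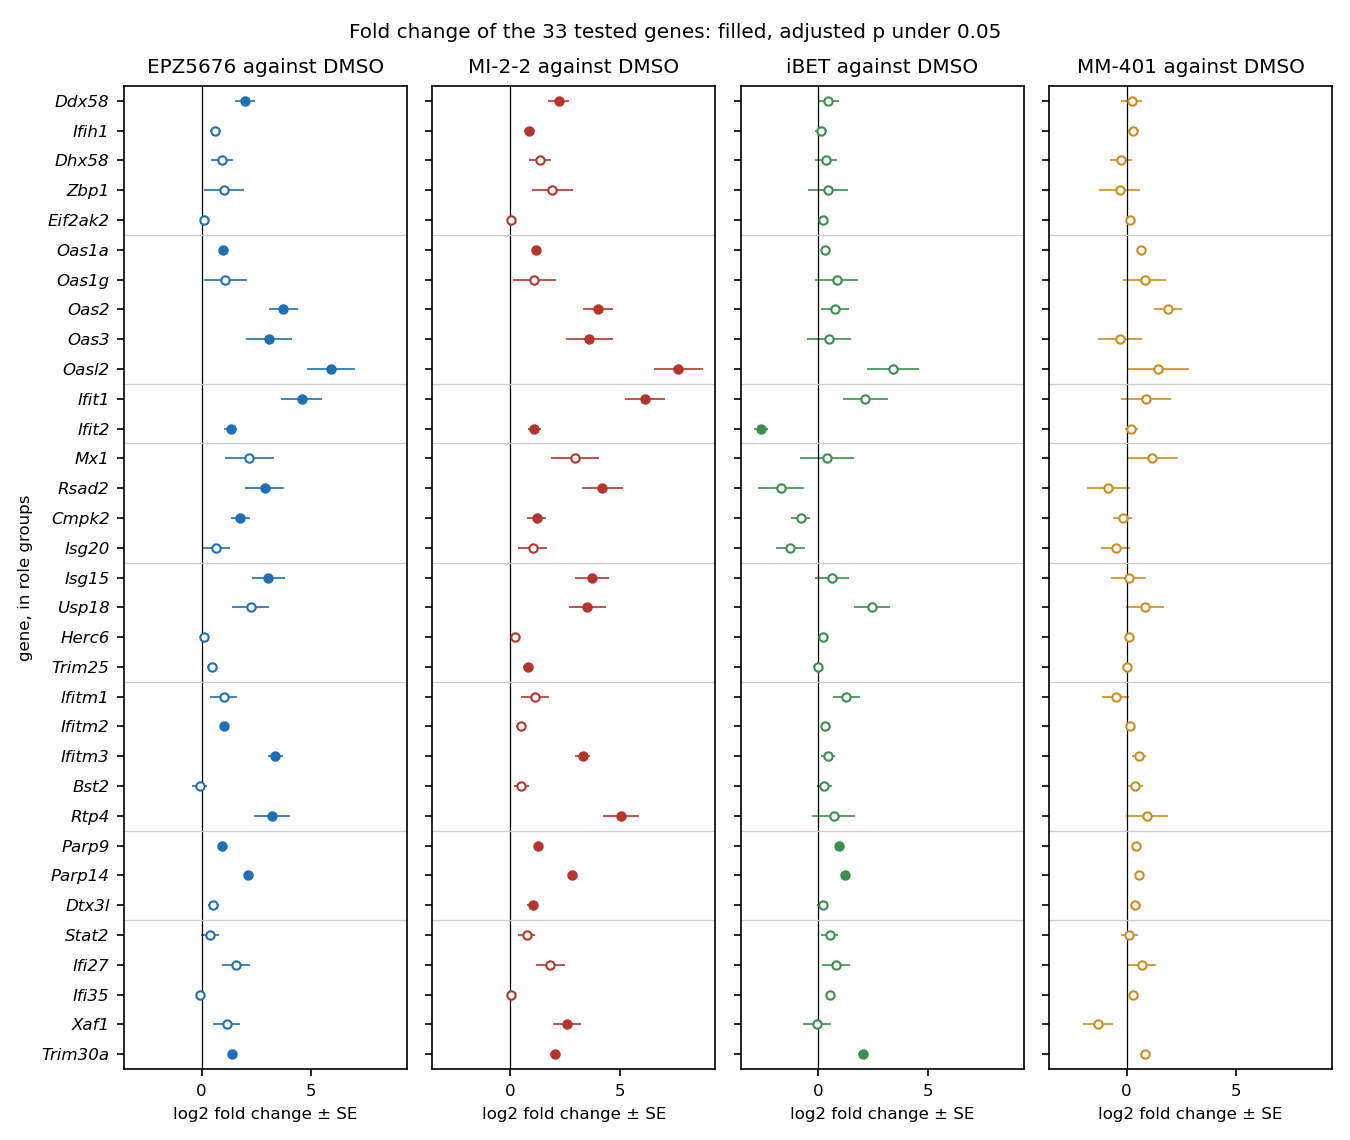
Log2 fold change with its standard error (horizontal axis) of each of the 33 tested members (rows) against DMSO, 1 panel per inhibitor, with filled points for an adjusted p under 0.05. The filled points number 16 for EPZ5676, 20 for MI-2-2, 4 for iBET and 0 for MM-401.

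Among the RNA and DNA sensors, Ddx58 (RIG-I) rose most clearly. It stood at 30.8 and 10.3 CPM in DMSO, 26.1 and 22.1 with MM-401, 94.0 and 67.9 with EPZ5676, 114 and 77.8 with MI-2-2, and 34.2 and 22.8 with iBET. The EPZ5676 and MI-2-2 libraries were the 4 highest. Its log2 fold change against DMSO was 1.97 ± 0.48 (SE, n = 2 per group, edgeR adjusted p = 0.0143) with EPZ5676 and 2.21 ± 0.48 (adjusted p = 0.00855) with MI-2-2, and without the second DMSO library it was 1.42 ± 0.35 and 1.67 ± 0.35. Ifih1 (MDA5) was called with MI-2-2 at 0.89 ± 0.26 (adjusted p = 0.0279), and not without the second DMSO library, where it was 0.65 (adjusted p = 0.0932). Dhx58 (LGP2, a regulator of both sensors) and Zbp1, a sensor of Z-form nucleic acid, were not called against DMSO. Zbp1 was at 12.2 and 1.15 CPM in the DMSO libraries, 1 above and 1 below the MM-401 libraries at 7.27 and 3.57 CPM. Eif2ak2 (PKR, which stops translation on double-stranded RNA) was the most abundant sensor by reads and stayed within 65.8 to 94.9 CPM in the 10 libraries. DMSO held 94.3 and 65.8 CPM of it, MM-401 85.5 and 93.2, EPZ5676 92.8 and 80.3, MI-2-2 87.2 and 75.9, and iBET 94.9 and 90.8. DMSO overlapped each inhibitor group while MI-2-2 lay below iBET, and its log2 fold changes against DMSO lay at 0.11 ± 0.18 with EPZ5676 and 0.03 ± 0.18 with MI-2-2.

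The OAS family held some of the largest changes. Oas2 was at 8.41 and 1.25 CPM in DMSO, 16.0 and 20.3 with MM-401, 68.5 and 61.2 with EPZ5676, 89.7 and 69.7 with MI-2-2, and 8.53 and 8.15 with iBET. The 4 libraries of EPZ5676 and MI-2-2 were 3 or more times above every other library. Its log2 fold change was 3.73 ± 0.67 with EPZ5676 (adjusted p = 0.00444) and 4.02 ± 0.67 with MI-2-2 (adjusted p = 0.00314), and without the second DMSO library it was 2.97 ± 0.24 and 3.28 ± 0.25. Oas3 was at 10.9 and 0.479 CPM in DMSO, 6.13 and 3.15 with MM-401, 58.9 and 37.7 with EPZ5676, 98.0 and 43.7 with MI-2-2, and 10.6 and 5.74 with iBET. The treated libraries of EPZ5676 and MI-2-2 again did not overlap the rest. Its change was 3.07 ± 1.04 (adjusted p = 0.0490) and 3.62 ± 1.06 (adjusted p = 0.0275), and its DMSO libraries were far apart. Without the second DMSO library it was 2.18 ± 0.65 and 2.74 ± 0.67, both still called. Oas1a rose less but with little spread, by 0.96 ± 0.17 and 1.17 ± 0.17.

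Oasl2, an OAS-like protein that regulates antiviral signalling, was nearly silent in DMSO, with 1 read in each library. It was at 0.0389 and 0.0479 CPM in DMSO, 0.127 and 0.126 with MM-401, 3.59 and 2.16 with EPZ5676, 16.9 and 2.85 with MI-2-2, and 0.353 and 0.650 with iBET. From the reads, the ratio to DMSO was 66.7 with EPZ5676 (95% exact interval 18.1 to 557, counting error only) and 216 with MI-2-2 (59.4 to 1788). Against MM-401, where 3 reads stood in each library, the fitted log2 fold changes were 4.45 ± 0.95 and 6.23 ± 0.97, given as a description because the gene passed the filter only through the treated libraries. The MI-2-2 replicates were far apart, and the EPZ5676 replicates were close. Oas1g was at 0.288 CPM in the second DMSO library and at 7.34 to 11.0 CPM in the other 9, and it was not called in any comparison with all libraries. Oasl1 had few reads, with 6 reads in EPZ5676, 2 in MI-2-2, 1 in DMSO and in MM-401, and 0 in iBET. Reads may be shared between Oas1a and Oas1g, or between other near-identical copies such as the IFITM genes, in a way that the sources do not state.

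In the IFIT family Ifit1 and Ifit2 rose with EPZ5676 and MI-2-2, and Ifit2 fell with iBET. Ifit1 was at 0.0389 and 0.0959 CPM in DMSO, 0.127 and 0.126 with MM-401, 1.65 and 1.65 with EPZ5676, 8.41 and 1.68 with MI-2-2, and 0.309 and 0.306 with iBET. DMSO was lowest, followed by MM-401 and iBET without overlap, and MI-2-2 replicate 2 was level with the EPZ5676 libraries. With 3 reads in DMSO, the ratio of reads was 25.6 for EPZ5676 (8.39 to 127) and 73.8 for MI-2-2 (25.0 to 360). Against MM-401 the fitted log2 fold changes were 3.65 ± 0.84 and 5.26 ± 0.85, with the same limit as for Oasl2. Ifit2 was at 6.85 and 8.91 CPM in DMSO, 8.54 and 9.70 with MM-401, 20.2 and 19.3 with EPZ5676, 21.2 and 12.7 with MI-2-2, and 1.02 and 1.53 with iBET. It was the only member called lower against DMSO in any comparison, by iBET, at -2.62 ± 0.33 (adjusted p = 0.00475). With EPZ5676 and MI-2-2 it rose, by 1.33 ± 0.30 (adjusted p = 0.0107) and 1.11 ± 0.30 (adjusted p = 0.0193). Ifit3 had no read in MM-401, 3 in DMSO, 2 in iBET, 14 in EPZ5676 and 36 in MI-2-2, so MI-2-2 was at least 11.3-fold above MM-401 on a floor of 3 reads over the group. Its ratio to DMSO was 11.1 with MI-2-2 (3.50 to 56.2).

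**Figure D4:**
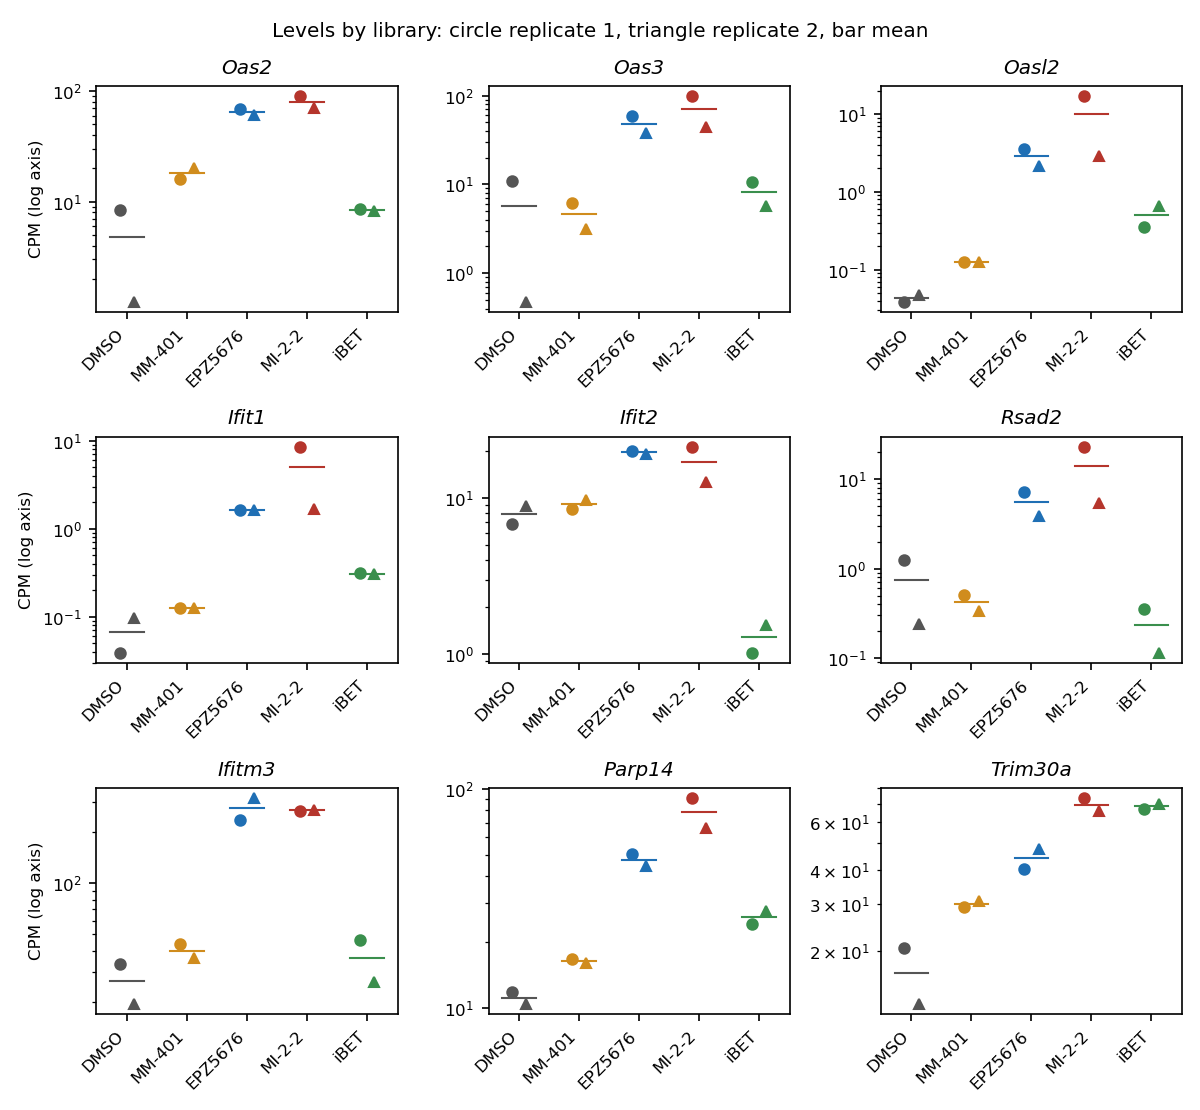
Levels of 9 members in CPM (vertical axes, logarithmic, with separate ranges) in each library, by group (horizontal axes), with a circle for replicate 1, a triangle for replicate 2 and a bar for the mean. In 8 of the panels the EPZ5676 and MI-2-2 libraries stand above DMSO, MM-401 and iBET, while in Trim30a iBET reaches the level of MI-2-2.

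Rsad2 (viperin, which makes a chain-terminating nucleotide) and Cmpk2, a mitochondrial nucleotide kinase, were both called with EPZ5676 and MI-2-2. Rsad2 was at 1.25 and 0.240 CPM in DMSO, 0.507 and 0.336 with MM-401, 7.23 and 3.91 with EPZ5676, 22.8 and 5.37 with MI-2-2, and 0.353 and 0.115 with iBET. Its log2 fold change was 2.87 ± 0.90 (adjusted p = 0.0380) with EPZ5676 and 4.21 ± 0.93 (adjusted p = 0.00937) with MI-2-2. Without the second DMSO library the EPZ5676 call was lost, at 2.18 ± 0.94 (adjusted p = 0.107), and MI-2-2 was at 3.53 ± 0.99. Cmpk2 was at 4.98 and 13.5 CPM in DMSO, 7.99 and 8.27 with MM-401, 30.1 and 32.4 with EPZ5676, 26.4 and 16.5 with MI-2-2, and 5.04 and 5.59 with iBET. It was 1 of the 8 tested members lower in the first DMSO library than in the second. Its change was 1.76 ± 0.43 (adjusted p = 0.0145) and 1.22 ± 0.42 (adjusted p = 0.0494), and 2.67 ± 0.31 and 2.14 ± 0.30 without the second DMSO library. Isg20, an exonuclease of RNA, and the Mx GTPase gene Mx1 were not called against DMSO, with 1.04 ± 0.65 and 2.98 ± 1.08 under MI-2-2. Mx2 held 0 to 7 reads per library, none of them in MM-401, and Ifi44 held 2 reads in all, both in MI-2-2 replicate 1.

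In the ISG15 system the tag itself was called higher with both EPZ5676 and MI-2-2. Isg15 rose by 3.04 ± 0.76 (adjusted p = 0.0165) with EPZ5676 and 3.74 ± 0.77 (adjusted p = 0.00710) with MI-2-2, from 0.779 and 0.144 CPM in DMSO to 4.61 and 3.25 CPM and to 9.54 and 3.25 CPM. Without the second DMSO library its change was 2.35 ± 0.73 and 3.06 ± 0.74. MM-401 held 0.465 and 0.546 CPM of it and iBET 0.884 and 0.574. Usp18, which removes ISG15 and blocks the interferon receptor, was called with MI-2-2 at 3.53 ± 0.84 (adjusted p = 0.0124). That call was lost without the second DMSO library (adjusted p = 0.0519). Herc6, the main ISG15 ligase of mice, stayed at 18.3 to 25.9 CPM in all libraries, with changes of 0.12 ± 0.19 and 0.22 ± 0.19. Trim25, a ubiquitin ligase that activates RIG-I, was the most abundant of the group by reads. DMSO held 137 and 100 CPM of it, MM-401 127 and 111, EPZ5676 194 and 130, MI-2-2 222 and 194, and iBET 119 and 114. The MI-2-2 libraries and EPZ5676 replicate 1 were the 3 highest, and the change with MI-2-2 was 0.81 ± 0.22 (adjusted p = 0.0187).

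Of the membrane factors, Ifitm3, which blocks virus fusion in endosomes, gave a tight and large change. It was at 33.7 and 19.6 CPM in DMSO, 43.9 and 36.2 with MM-401, 234 and 314 with EPZ5676, 265 and 269 with MI-2-2, and 46.1 and 26.4 with iBET. The 4 EPZ5676 and MI-2-2 libraries were over 5 times above every other library. Its log2 fold change was 3.36 ± 0.35 (adjusted p = 0.000703) and 3.32 ± 0.34 (adjusted p = 0.000687). Ifitm2, a close paralog, was at 151 and 102 CPM in DMSO, 148 and 139 with MM-401, 224 and 295 with EPZ5676, 173 and 187 with MI-2-2, and 177 and 142 with iBET. Only EPZ5676 was called, at 1.04 ± 0.22 (adjusted p = 0.00800), and MI-2-2 was at 0.51 ± 0.21 (adjusted p = 0.0915). The direct difference between EPZ5676 and MI-2-2 was 0.53 ± 0.21 and was not called (adjusted p = 0.656). Per kilobase of exon, Ifitm2 had the highest mean level of the 37 members in DMSO, at 193 CPM per kilobase against 39.4 for Ifitm3. After EPZ5676 they stood at 397 and 404, with overlapping libraries, and after MI-2-2 at 275 and 394, where they did not overlap. Ifitm1, the third close paralog, was at 93.3 and 50.5 CPM in DMSO, 69.5 and 33.1 with MM-401, 165 and 124 with EPZ5676, 174 and 144 with MI-2-2, and 280 and 69.5 with iBET. The iBET replicates were over 2-fold apart, and Ifitm1 was not called in any comparison. Bst2 (tetherin), which holds budding virus at the cell surface, was not called in any comparison with all libraries. Rtp4 rose from 4 DMSO reads to 0.873 and 0.800 CPM with EPZ5676 and to 4.94 and 1.13 CPM with MI-2-2. The fitted log2 changes were 3.20 ± 0.83 and 5.05 ± 0.81, with the same limit as for Oasl2.

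Parp9 and Parp14, members of the ADP-ribosyltransferase family that are induced by interferon, were called with 3 of the inhibitors. Parp14 was at 11.8 and 10.4 CPM in DMSO, 16.7 and 16.0 with MM-401, 50.3 and 44.3 with EPZ5676, 90.3 and 66.2 with MI-2-2, and 24.2 and 27.6 with iBET. The groups followed each other without overlap in the order DMSO, MM-401, iBET, EPZ5676 and MI-2-2. The log2 fold changes against DMSO were 2.09 ± 0.18 with EPZ5676 (adjusted p = 0.000481), 2.82 ± 0.19 with MI-2-2 (adjusted p = 0.000247) and 1.22 ± 0.18 with iBET (adjusted p = 0.00767). With MM-401 it was 0.56 ± 0.18 and not called (adjusted p = 0.336). Parp9 rose by 0.94 ± 0.14, 1.28 ± 0.14 and 0.94 ± 0.14 in the same order. Dtx3l, its ubiquitin ligase partner, was at 44.7 and 28.8 CPM in DMSO, 51.9 and 45.6 with MM-401, 59.5 and 46.8 with EPZ5676, 85.9 and 64.0 with MI-2-2, and 45.3 and 39.1 with iBET. Only MI-2-2 was called, at 1.03 ± 0.24 (adjusted p = 0.0120).

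Stat2, the transcription factor of the list, was not called in any comparison with all libraries. It was at 74.5 and 32.8 CPM in DMSO, 65.5 and 52.1 with MM-401, 84.7 and 55.7 with EPZ5676, 111 and 71.1 with MI-2-2, and 86.9 and 66.4 with iBET. DMSO overlapped each inhibitor group, MM-401 lay below MI-2-2 and iBET, and replicate 1 was above replicate 2 in every group. Its log2 fold change was 0.39 ± 0.40 with EPZ5676 and 0.76 ± 0.40 with MI-2-2. Without the first DMSO library, which leaves only the second at 32.8 CPM as control, it was 1.10 ± 0.36 and 1.47 ± 0.36. The first DMSO library, at 74.5 CPM, lay between replicate 1 and replicate 2 of EPZ5676 and also of MI-2-2. Trim30a, a negative regulator of inflammatory signalling, was at 20.6 and 12.8 CPM in DMSO, 29.2 and 30.7 with MM-401, 40.3 and 47.8 with EPZ5676, 73.5 and 65.9 with MI-2-2, and 67.3 and 70.3 with iBET. DMSO, MM-401 and EPZ5676 followed each other without overlap, while MI-2-2 and iBET overlapped above them. Its change was 1.40 ± 0.21 with EPZ5676 (adjusted p = 0.00245), 2.06 ± 0.22 with MI-2-2 (adjusted p = 0.000721) and 2.04 ± 0.22 with iBET (adjusted p = 0.00299). Xaf1, a pro-apoptotic gene, was called with MI-2-2 at 2.59 ± 0.63 (adjusted p = 0.0137). Ifi27 was at 8.24 CPM in the second DMSO library and at 47.8 to 121 CPM in the other 9. It was not called with all libraries, and was called without that library at 0.79 ± 0.17 with EPZ5676 (adjusted p = 0.0104) and 1.09 ± 0.17 with MI-2-2 (adjusted p = 0.00311). Ifi35 lay between 24.4 and 41.5 CPM everywhere and was not called against DMSO.

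iBET changed few of the antiviral genes. Parp9, Parp14 and Trim30a were called higher and Ifit2 lower, 3 and 1 of 33, where 6.38% of all genes were called higher and 7.54% lower. These shares are near those of all genes. Both iBET libraries lay above both DMSO libraries for 10 members, and 27.7% of all genes did the same. Rsad2 at -1.70 ± 1.05 and Oas2 at 0.77 ± 0.63 were not called. Usp18 was at 1.90 and 1.38 CPM with iBET, above the DMSO libraries at 0.389 and 0.192, and missed the threshold at 2.45 ± 0.83 (adjusted p = 0.0874). The count of called members was 6 without the second DMSO library, where Isg20 was lower at -1.99 ± 0.48 and Ifi35 higher at 0.72 ± 0.19. It was 16 without the first and 2 without iBET replicate 2, when Parp9 and Parp14 were at an adjusted p of 0.0601. Calls over all genes also grew in number without either DMSO library and fell without iBET replicate 2. Ifit2 and Trim30a kept their call whichever library was left out.

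MM-401 changed none of the antiviral genes past the threshold. No member and 0% of all genes were called, and 1450 of the 12971 genes had an unadjusted p under 0.05. DESeq2 called 297 genes, 2 of them members. The median log2 fold change of the members was 0.29, and single members ran from -1.30 for Xaf1 to 1.89 for Oas2, which had an SE of 0.63 (adjusted p = 0.348). Both MM-401 libraries exceeded both DMSO libraries for 13 members, while 19.5% of all genes did so. Without the second DMSO library the median was 0.01, and without the first it was 0.79 with 6 members called. Many genes outside the list were also called without the first DMSO library. The 4 comparisons with DMSO share the same control libraries, so a low or high control value moves all of them together.

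Comparisons between inhibitors do not use DMSO as a group. Against MM-401, EPZ5676 had 14 members called higher and 0 lower, where 16.7% of all genes were higher and 16.6% lower. MI-2-2 had 19 higher and 0 lower, against 18.0% and 17.6% of all genes. Among the 29 members that pass the filter without the EPZ5676 and MI-2-2 libraries, the counts were 12 and 16. Over all 33 tested members, the median log2 fold change was 1.15 and 1.53. Rsad2 differed from MM-401 by 3.71 ± 0.96 with EPZ5676 (adjusted p = 0.0211) and 5.05 ± 0.99 with MI-2-2 (adjusted p = 0.00715), and Ifitm3 by 2.77 ± 0.34 (adjusted p = 0.00152) and 2.74 ± 0.34 (adjusted p = 0.00173). Leaving out single libraries brought these counts to between 2 and 6 for EPZ5676, the lowest without either MM-401 library, and between 8 and 13 for MI-2-2. Calls over all genes fell in number as well in each of these runs. iBET against MM-401 had Trim30a higher at 1.20 ± 0.21 (adjusted p = 0.0131) and Ifit2 lower at -2.83 ± 0.33 (adjusted p = 0.00406). Of all genes, 5.48% were higher and 5.96% lower in that comparison.

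Against iBET, EPZ5676 had 13 members higher and 2 lower, Trim30a at -0.64 ± 0.21 and Ifi35 at -0.61 ± 0.18, with 19.1% of all genes higher and 18.5% lower. MI-2-2 had 18 higher and 0 lower, with 19.7% and 19.1% of all genes. The members called higher with each include Oasl2, Ifit1 and Rtp4. These passed the filter only through the EPZ5676 and MI-2-2 libraries, so their calls are a description. Ifit2 gave the clearest difference from iBET, at 3.95 ± 0.34 for EPZ5676 (adjusted p = 0.00025) and 3.73 ± 0.34 for MI-2-2 (adjusted p = 0.00033). Without single iBET libraries the counts fell to 4 for EPZ5676 and 8 for MI-2-2. Calls over all genes fell in number there too. EPZ5676 and MI-2-2 did not differ past the threshold for any member. Of all genes, 0.0154% (2 genes) were called and 937 had an unadjusted p under 0.05. DESeq2 called 1 member. The median difference, EPZ5676 minus MI-2-2, was -0.37 on the log2 scale, with single members between -1.85 (Rtp4, ± 0.64, adjusted p = 0.563) and 0.54. The standard errors leave room for sizeable differences in Oasl2 (-1.78 ± 0.73) and Ifit1 (-1.61 ± 0.67).

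The replicates of some groups differed in the antiviral genes more than in other genes. In MI-2-2, replicate 1 exceeded replicate 2 for 31 of the 33 tested members, with a median log2 ratio of 0.49 where all genes had -0.03. A difference over 2-fold was seen in 11 members (33.3%) and in 6.07% of all genes. Oasl2 at 16.9 and 2.85 CPM, Ifit1 at 8.41 and 1.68 CPM, and Rsad2 at 22.8 and 5.37 CPM are examples. The 31 and the 11 members both include Oasl2, Ifit1, Mx1 and Rtp4. These passed the filter only through the EPZ5676 and MI-2-2 libraries, so their ratios are a description. In DMSO, 14 members (42.4%) and 19.3% of all genes differed over 2-fold, with replicate 1 higher in 25 members. In EPZ5676 no member differed over 2-fold, and in MM-401 and iBET 2 did in each. The libraries are biological duplicates by the labels, whose separate origin is not described further. The DMSO pair held 1 and 3630 Y-linked reads and differed in Mpo, at 386 and 4816 CPM. Each comparison with DMSO therefore also holds whatever sets these 2 libraries apart. The p-values rest on a spread estimated over all 10 libraries and speak for these samples only.

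**Figure D5:**
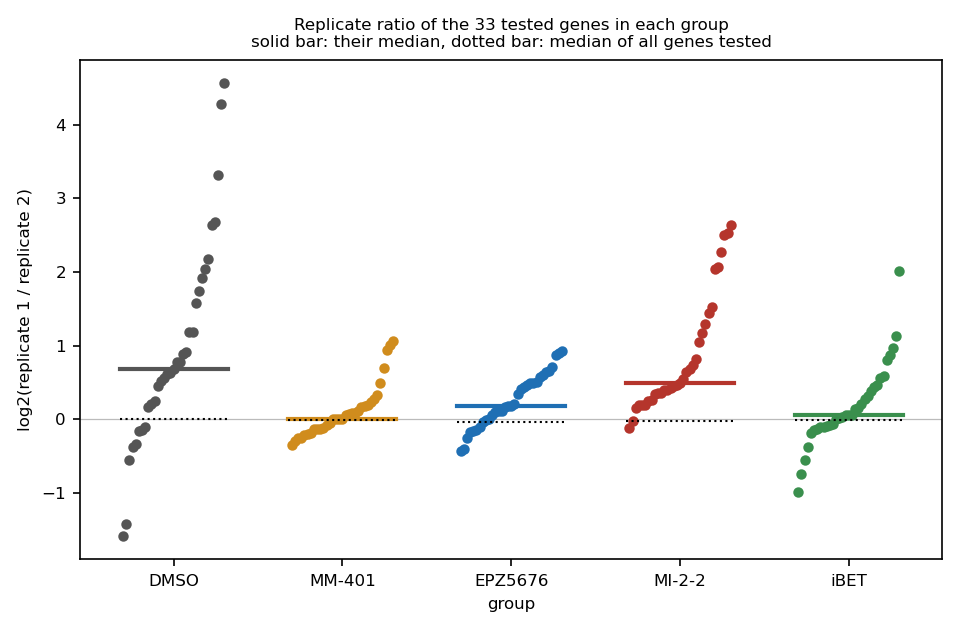
Log2 ratio of replicate 1 to replicate 2 (vertical axis) for the 33 tested members in each group (points, sorted within the group), with the median of the members as a solid bar and that of all genes tested as a dotted bar. The solid bar lies at 0.68 in DMSO and 0.49 in MI-2-2, and the dotted bars lie near 0.

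Other genes of the pathway were counted from fixed lists. Beside these counts, 18.7% of all genes tested were called higher and 19.4% lower with EPZ5676. The shares were 20.2% and 21.2% with MI-2-2, and 6.38% and 7.54% with iBET. The interferons themselves were almost without reads. Of 21 ligand genes, 17 had no read, and the 21 together had 28 of the 235254628 reads. Ifnb1 had 1 read, in MI-2-2 replicate 1, and no read allows up to 0.145 CPM in the shallowest library on a floor of 3 reads, for counting error only. Among the 9 receptor, kinase and ISGF3 genes, 5 rose and 1 fell with EPZ5676, 7 rose and 1 fell with MI-2-2, and 6 rose with iBET. Jak1, a kinase of the receptor, rose by 1.12 ± 0.13 with EPZ5676 (adjusted p = 0.000956), 1.11 ± 0.13 with MI-2-2 (adjusted p = 0.000914) and 0.71 ± 0.13 with iBET (adjusted p = 0.0130). Jak2 rose by 1.39 ± 0.14, 1.53 ± 0.14 and 0.57 ± 0.13 in the same order. Ifnar1 was called higher with iBET, from 78.9 and 109 CPM in DMSO to 162 and 178 CPM, and stayed at -0.07 ± 0.16 with both EPZ5676 and MI-2-2. Ifnar2 rose with MI-2-2 by 0.59 ± 0.20 (adjusted p = 0.0458) and with iBET by 0.81 ± 0.20 (adjusted p = 0.0370). Ifngr1, a chain of the interferon gamma receptor, fell by 1.24 with EPZ5676 and by 0.91 with MI-2-2 on the log2 scale, with an SE of 0.14 in each case.

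Among the 13 genes that induce interferon after nucleic acid sensing, 5 rose and 2 fell with EPZ5676. With MI-2-2 6 rose, and 4 rose with iBET. Of all genes tested, 18.7%, 20.2% and 6.38% were called higher with EPZ5676, MI-2-2 and iBET, and 19.4%, 21.2% and 7.54% lower. Irf7, the factor that amplifies interferon production, was at 2.34 and 0.815 CPM in DMSO, 22.9 and 13.3 with EPZ5676, 45.6 and 18.9 with MI-2-2, and 12.1 and 10.9 with iBET. It was called in all 3, at 3.50 ± 0.59, 4.33 ± 0.61 and 2.84 ± 0.58. Tlr7, a receptor for single-stranded RNA, rose by 4.09 ± 0.62 and 4.15 ± 0.63 with EPZ5676 and MI-2-2, while iBET was at -0.05 ± 0.60. Mavs, the adaptor of RIG-I, fell by 0.78 with EPZ5676 (adjusted p = 0.00907). Of the 9 negative regulators, 6 rose and 1 fell with EPZ5676, 5 rose and 1 fell with MI-2-2, and 2 rose with iBET. Samhd1 rose by 1.40 ± 0.18 and 1.49 ± 0.18, Adar by 0.59 ± 0.12 and 0.81 ± 0.12, and Nlrc5 by 2.14 ± 0.53 and 2.91 ± 0.53. Of 33 tested genes among 36 other interferon-stimulated genes, 19 rose and 1 fell with EPZ5676, 25 rose and 1 fell with MI-2-2, and 7 rose and 1 fell with iBET. Ifitm6, a paralog of the IFITM genes, went from 3.35 and 1.10 CPM in DMSO to 252 and 452 with EPZ5676 and 152 and 276 with MI-2-2, and was at 0.839 and 0.383 CPM with iBET. Parp12 was called in all 3 comparisons, at 3.02 ± 0.23, 3.32 ± 0.24 and 2.19 ± 0.23, and Ifi27l2a likewise at 3.99 ± 0.33, 4.45 ± 0.33 and 1.65 ± 0.31. With MM-401, 0 of the 64 tested pathway genes and 0% of all genes were called.

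Markers of mature myeloid cells moved with the antiviral genes. The 4 neutrophil markers Ltf, Ngp, Camp and Cebpe were all called higher with EPZ5676 and MI-2-2, and their summed level was 16693 to 21328 CPM with EPZ5676 and 14943 to 15512 CPM with MI-2-2. It was 289 to 738 CPM in DMSO, 1003 to 1168 with MM-401 and 64.5 to 118 with iBET. The 5 monocyte and macrophage markers were also all higher with both, at 2044 to 2723 and 2345 to 3023 CPM against 333 to 527 in DMSO and 325 to 359 with iBET. Within the MI-2-2 pair, the neutrophil sums lay close together while Oasl2, Ifit1 and Rsad2 differed over 2-fold. The lymphoid marker Nkg7 was at 65.7 CPM in the second DMSO library and at 0.0383 to 4.75 CPM in the others. The part of these markers in the changes of the antiviral genes was not tested.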

How the data were processed

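RNA from MAF9 cells was isolated with RNeasy, made into TruSeq libraries and sequenced, 2 libraries for each of 5 groups. The deposited values are raw read counts per gene, 1 column per library, without normalization by the authors. The submitters' processing notes name mm9, TopHat2, Subread and DESeq. No source used here gives the annotation, the strand setting or the treatment of reads that map to several places. Such choices can move reads between near-identical paralogs.

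Samples were grouped by their labels. The two-sided quasi-likelihood test of edgeR 4.0.16 was run in R 4.3.3, after filterByExpr and TMM, in 1 fit of all 10 libraries, and p-values were adjusted with Benjamini-Hochberg over the 12971 genes tested in each of 10 comparisons, with a threshold of 0.05. The standard error is the log2 fold change divided by the square root of F. A gene with 1 to 3 reads in a group has its ratio of reads with an exact binomial interval, and with 0 reads a bound against 3 reads. Scripts were tested on simulated data. Alternatives were other scalings, no filter, DESeq2 1.42.0, a replicate block, the 4 libraries compared alone, and leaving out single libraries. Exon lengths came from GENCODE M21 and promoters from RefSeq GRCm38.p6.

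The members and gene lists were chosen with earlier results of these data known. Values in every library are given for the 3 members with the largest called change in each comparison at 5 CPM or more, the most abundant member of each role group by mean CPM, Stat2, and members with no read in a whole group. Values of members outside that rule, such as Ddx58, Isg15 and Rtp4, were chosen after their values were seen. The sequences are promoters of members of the first kind that hold the motif. Some results are not reported here.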

Additional observations from a re-analysis of the deposited data

How the results depend on the processing

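For 108 calls of single members over the 10 comparisons, 1148 values were computed under alternatives. The call held in 913, was lost in 235 and turned direction in 0. DESeq2 and the replicate block lost 0 of the 108, total count scaling lost 16, and the 4 libraries compared alone lost 33. Total count scaling shifted the median of all genes to -0.23 log2 for EPZ5676 and -0.20 for MI-2-2 against DMSO.

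With only the 4 libraries compared, 4 members were called against DMSO with EPZ5676, 0 with iBET and 5 with MI-2-2, and 22 for EPZ5676 and 8 for iBET against MM-401. With DESeq2 they numbered 2 for MM-401 against DMSO, 5 for iBET against MM-401 and 1 for EPZ5676 against MI-2-2. iBET against MM-401 gave 5 without both DMSO libraries. The number of calls over all genes moved in the same direction in each of these runs. The cause of these shifts was not tested. Leaving out single libraries, with a lone library assumed to vary like the other groups, gave 11 to 25 called members for EPZ5676, 11 to 27 for MI-2-2, 2 to 16 for iBET and 0 to 6 for MM-401 against DMSO. It gave 2 to 6 for EPZ5676, 8 to 13 for MI-2-2 and 1 throughout for iBET against MM-401, and 4 to 8 for EPZ5676 and 8 to 18 for MI-2-2 against iBET. For EPZ5676 against MI-2-2 it was 0 throughout.

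The replicate numbers of the labels name no shared batch, and differences of replicate 1 minus replicate 2 correlated between groups at 0.28 to 0.67 across genes. With the number as a replicate block, the members called against DMSO were 22 with EPZ5676, 26 with MI-2-2, 5 with iBET and 0 with MM-401. Of all 12971 genes tested, 6180, 6557, 3088 and 0 were called in the same order. The block added Ifih1, Usp18, Trim25, Ifitm1, Dtx3l and Ifi27 for EPZ5676, Dhx58, Zbp1, Isg20, Ifitm1, Stat2 and Ifi27 for MI-2-2, and Usp18 for iBET. The counts against MM-401 were 24 for MI-2-2, 19 for EPZ5676 and 5 for iBET. They were 18 and 19 for EPZ5676 and MI-2-2 against iBET, and 0 for EPZ5676 against MI-2-2. Depth limits members with few reads, such as Oasl1, Ifit3, Mx2 and Ifi44.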
